A study of Mus musculus with 12 samples.

Results

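*Ccn1*, *Ccn2*, *Amotl2*, *Ankrd1*, *Axl*, *Igfbp3*, *Myof*, *Crim1*, *F3* and *Asap1* belong to a group of genes that are widely read as classical targets of the co-activator YAP and its partner TEAD factors. They were taken by name from the deposited expression table, and all 10 were found among its 25676 genes. The table holds bulk RNA sequencing of whole liver from 12 C57BL/6 mice aged 3 to 4 months, 1 library per mouse. There were 6 wild-type mice (WT, 3 males and 3 females) and 6 mice labelled Foxa3-Cre YAP1 KO (KO, 3 males and 3 females). *Foxa3* is active in the embryonic foregut endoderm, so its Cre reaches hepatocytes and bile duct cells, which arise from that layer, and not the macrophages, endothelial cells or stellate cells of the liver. The labels do not say whether the WT mice carried Cre or a floxed *Yap1* allele, and do not give litters. The comparison asks how target genes of YAP stand in a liver whose epithelium lost YAP.

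YAP is held in the cytoplasm by the kinases of the Hippo pathway, and when released it enters the nucleus and binds TEAD factors, which recognise a short DNA motif near target genes. Its paralogue TAZ, encoded by *Wwtr1*, uses the same TEAD factors. In the adult liver YAP is best known for its part in bile duct cells, in organ size and in the response to injury, and many of its targets are also made by stellate, endothelial and immune cells and respond to other signals.

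*Yap1* transcript was reduced in every KO liver. It stood between 23.0 and 34.9 TPM (transcript abundance scaled to a sum of 1000000 per library), with a median of 28.9, in the 6 WT livers and between 0.994 and 3.11, with a median of 2.10, in the 6 KO livers, and the groups did not overlap. The difference was -3.36 on the log2(TPM + 1) scale, or -3.74 rescaled as described next (exact permutation within sex, two-sided, p = 0.005, the smallest that 400 arrangements allow). The libraries held 20086266 to 28449325 reads, recovered from the steps in the TPM values. Summed TPM of 10 hepatocyte markers was 96138 to 122352 in WT and 66198 to 90509 in KO. Most of that sum was *Alb*, at 54248 to 83194 TPM in WT and 42088 to 67819 in KO. The sum therefore does not describe the 10 markers one by one, and their calls are given below.

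TPM is a share of a library, and that share was set differently in the genotypes. Over the 12278 genes tested, the median log2 fold change of KO against WT was 0.35 on TPM as deposited, and -0.04 after each library was divided by its median ratio to the others. Fold changes over both sexes and by sex are therefore given on both scales, first as deposited and then rescaled. Levels, summed levels and fits without 1 library are as deposited where no scale is named. A gene counts as changed where limma gives a Benjamini-Hochberg adjusted p under 0.05 over all tested genes. The p-values set a difference between groups against the spread between these animals, and take the animals as independent. Nothing in the labels says that mice of a group were independent litters, so this could not be checked.

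Sequence just upstream of the genes is shown first, since TEAD binding is what the 10 genes are known for. RefSeq windows (build GRCm38.p6) of 250 bases before the transcript start were at hand for 8 of the 10, *Ccn2* and *Asap1* being the other two. The TEAD core motif GGAATG, read on both strands, was found in 5 of these 8 windows, against 12.6% of all 32817 windows of that length. The windows of *Axl*, *Myof* and *Igfbp3* are printed because these 3 genes changed on both scales, and that of *Ccn1* because it has the highest mean of the 10 over the 6 WT livers. They lie at chr7:25788734-25788983, chr19:38043578-38043827, chr11:7213924-7214173 and chr3:145649986-145650235, all on the minus strand, and are written 5′ to 3′ in the direction of the gene with the TEAD core in capitals (CATTCC where it reads on the other strand).
Axl: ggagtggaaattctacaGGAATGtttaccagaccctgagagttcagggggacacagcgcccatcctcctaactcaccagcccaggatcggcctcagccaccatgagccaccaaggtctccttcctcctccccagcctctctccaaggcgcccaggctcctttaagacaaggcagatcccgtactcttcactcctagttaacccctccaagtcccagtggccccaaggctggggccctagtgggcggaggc
Myof: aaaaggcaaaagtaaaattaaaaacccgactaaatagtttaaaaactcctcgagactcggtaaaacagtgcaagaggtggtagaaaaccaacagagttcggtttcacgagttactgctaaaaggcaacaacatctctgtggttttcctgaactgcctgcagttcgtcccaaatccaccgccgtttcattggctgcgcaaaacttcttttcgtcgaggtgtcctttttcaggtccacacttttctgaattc
Igfbp3: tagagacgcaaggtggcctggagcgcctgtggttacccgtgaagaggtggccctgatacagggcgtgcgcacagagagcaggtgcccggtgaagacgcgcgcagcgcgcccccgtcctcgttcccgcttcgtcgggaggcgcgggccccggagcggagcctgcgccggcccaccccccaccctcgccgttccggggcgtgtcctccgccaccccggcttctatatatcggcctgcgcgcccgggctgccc
Ccn1: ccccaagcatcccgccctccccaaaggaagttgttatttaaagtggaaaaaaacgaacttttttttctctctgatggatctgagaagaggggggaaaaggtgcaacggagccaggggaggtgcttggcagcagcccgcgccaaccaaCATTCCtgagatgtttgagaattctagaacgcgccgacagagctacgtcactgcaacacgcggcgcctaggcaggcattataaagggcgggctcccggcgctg

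*Axl* has the core 233 to 228 bases before its start, and *Ccn1* has it 103 to 98 bases before. No such letters stand in the windows of *Igfbp3* and *Myof*. The other matches are shown with 10 bases on each side, to set the cores side by side, since these windows overlap an annotated exon; *Ankrd1* has a pair of them, 210 to 205 and 123 to 118 bases before its start.
Ankrd1, far: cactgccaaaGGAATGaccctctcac
Ankrd1, near: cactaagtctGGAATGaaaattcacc
Amotl2: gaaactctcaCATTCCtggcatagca
Crim1: ggcgggggggGGAATGaggtaggatg

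In *Amotl2* the core lies 65 to 60 and in *Crim1* 79 to 74 bases before the start. The windows of *Igfbp3*, *Myof* and *F3* held no TEAD core. *F3* was the only one of the 8 with a match to the AP-1 motif TGANTCA, at 146 to 140 and 135 to 129 bases before its start, against 6.75% of all windows, and the CArG box was in none of the 8, against 1.47%. A match describes these letters and is not a measured binding site. The genes with a core in the window did not share a direction in KO liver: *Axl* was higher on both scales and *Amotl2* was not, as the values below show.

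The 10 genes did not share 1 direction in KO liver. Of the 9 that passed the filter of a mean of 0.5 TPM, 5 were higher (*Axl*, *Myof*, *Crim1*, *Ccn2* and *Asap1*) and 1 was lower (*Igfbp3*) on TPM as deposited, where 50.1% of all tested genes were higher and 4.82% lower. After rescaling 2 were higher (*Axl* and *Myof*) and 3 lower (*Igfbp3*, *Amotl2* and *F3*), where 20.9% of all tested genes were higher and 18.7% lower. The members' share of higher calls was near that of all genes on both scales. *Axl*, *Myof* and *Igfbp3* were called on both scales, and in all 35 other fits that were run. Voom on the recovered reads called 3 higher and 3 lower, with *Crim1* the added one, where 20.6% and 19.2% of all tested genes were called. The median log2 fold change of the 9 was 0.78 as deposited and 0.38 rescaled, beside 0.35 and -0.04 over all tested genes. *Ankrd1* was too low for the filter and was tested alone.

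**Figure D1:**
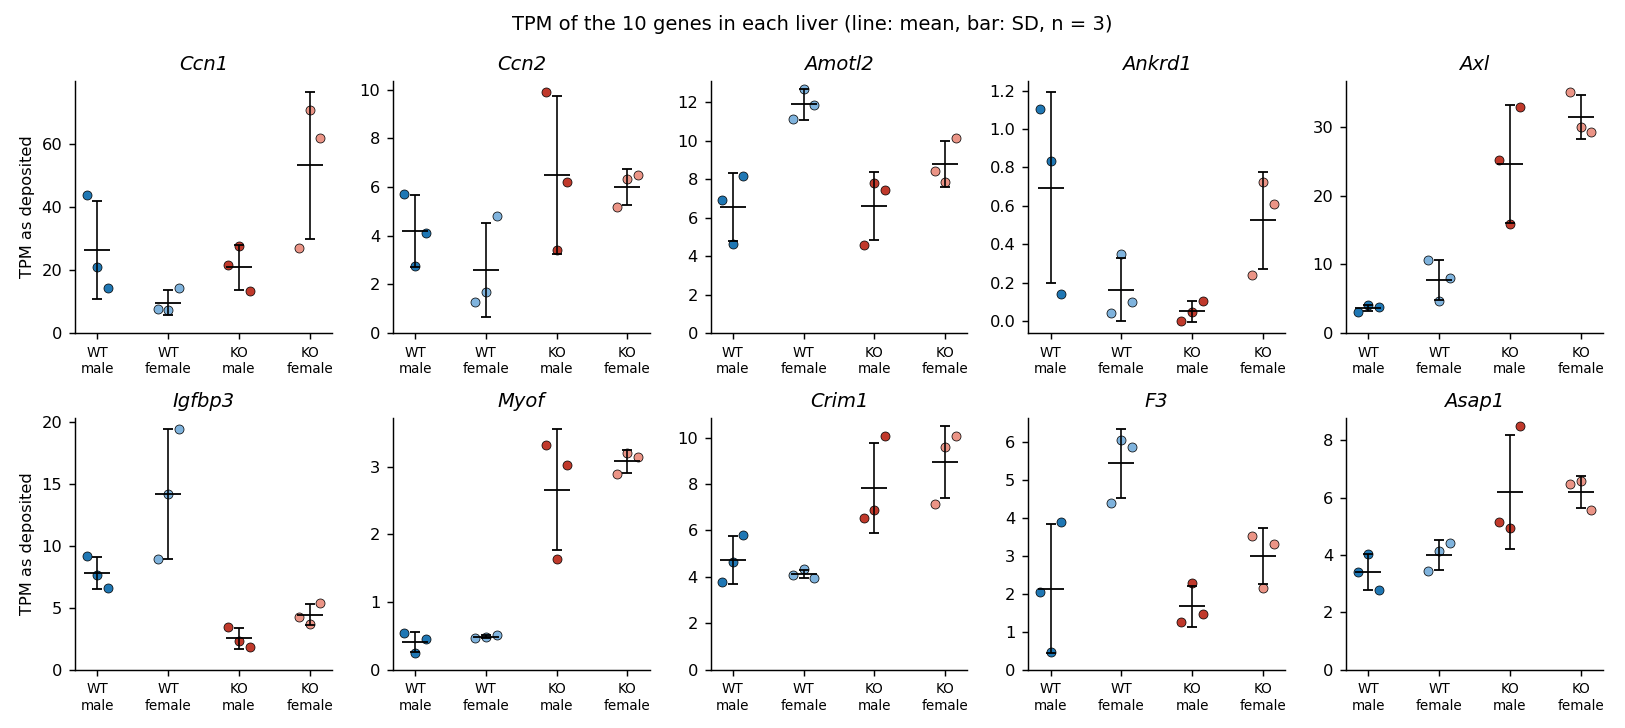
TPM as deposited (vertical axis, from 0) of each of the 10 genes in the 12 livers, by genotype and sex; points are mice, the line is the mean and the bar the SD of 3 mice. *Axl* and *Myof* in KO lie above every WT liver, *Igfbp3* lies below every WT liver, and *Ccn1*, *Ccn2*, *Amotl2*, *Ankrd1* and *F3* overlap between the genotypes.

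The levels differed widely among the 10, and TPM, being per transcript length, lets them be ranked. Over the 6 WT livers *Ccn1* had the highest mean, at 18.0 ± 13.6 TPM (SD, n = 6), followed by *Igfbp3* at 10.99 ± 4.89, *Amotl2* at 9.23 ± 3.17 and *Axl* at 5.69 ± 2.94. The ranges of neighbours in this order overlap between single WT livers. The order turned in WT females, where *Igfbp3* (14.2 ± 5.24 TPM) and *Amotl2* (11.9 ± 0.787) were above *Ccn1* (9.66 ± 4.06, SD, n = 3). *Crim1* (4.43 ± 0.738), *F3* (3.79 ± 2.18), *Asap1* (3.70 ± 0.609) and *Ccn2* (3.38 ± 1.77) formed a middle set, and *Myof* (0.450 ± 0.105) and *Ankrd1* (0.430 ± 0.439) were under 1 TPM. In KO liver *Ccn1* (37.0 ± 23.5) and *Axl* (28.1 ± 6.88) stood at the top.

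Among the secreted members, *Igfbp3* was the one that fell. It encodes a carrier of insulin-like growth factors in plasma and lies at chr11:7206086-7213923. *Igfbp3* ranged from 6.55 to 19.4 TPM with a median of 9.06 in WT and from 1.80 to 5.36 with a median of 3.57 in KO. Every KO liver was below every WT liver, on both scales, which held for 1.88% of all tested genes as deposited and 8.19% rescaled. The WT mean was 3.16 times the KO mean, and the log2 fold change was -1.39 (SE 0.177, adjusted p = 2.57e-05 by limma), or -1.77 rescaled.

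*Ccn1* and *Ccn2* encode matricellular proteins that bind integrins and growth factors, and both are also rapidly induced by serum and injury. *Ccn1* (chr3:145646976-145649981) ranged from 7.15 to 43.8 TPM with a median of 14.4 in WT and from 13.3 to 70.8 with a median of 27.2 in KO. The groups overlapped, with 1 WT male at 43.8 above 4 KO livers. The log2 fold change of *Ccn1* was 1.03 (SE 0.458, adjusted p = 0.0715), or 0.59 rescaled (adjusted p = 0.382), so it passed on neither scale. Without WT male replicate 1 it passed as deposited at 1.36 (adjusted p = 0.0134), and without KO male replicate 3 at 1.29 (adjusted p = 0.033).

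*Ccn2* (chr10:24595442-24598683) ranged from 1.25 to 5.70 TPM with a median of 3.43 in WT and from 3.41 to 9.89 with a median of 6.28 in KO. The KO values lay mostly above the WT values, with an overlap between 3.41 and 5.70. Its log2 fold change of 0.78 passed as deposited (SE 0.268, adjusted p = 0.0239) and not rescaled (0.41, adjusted p = 0.277). As deposited the call was lost when any of WT female replicates 1 and 2, KO male replicate 1 or KO female replicate 3 was left out (adjusted p = 0.0512 to 0.0578).

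*Crim1*, a membrane protein that binds bone morphogenetic proteins, lies at chr17:78200248-78376592. It ranged from 3.77 to 5.81 TPM with a median of 4.21 in WT and from 6.53 to 10.1 with a median of 8.38 in KO. The groups did not overlap as deposited, which held in this direction for 28.7% of all tested genes, and overlapped after rescaling. The log2 fold change was 0.78 (SE 0.141, adjusted p = 0.000439), or 0.38 rescaled (adjusted p = 0.0509). Rescaled, it passed in 5 of the 12 fits that each left out 1 library (adjusted p = 0.0273 to 0.117).

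Of the receptors at the cell surface, *Axl* rose, with the largest rise among the 9 tested members on the log2(TPM + 1) scale. *Myof* was ahead of it in the ratio of mean TPM (6.38 against 4.93, rescaled 4.69 against 3.63), in voom on the recovered reads (2.19 against 1.91) and in the authors' deposited table. AXL is a receptor tyrosine kinase of the TAM family that binds GAS6 and takes part in the uptake of dying cells; its gene is at chr7:25757273-25788705. *Axl* ranged from 3.09 to 10.6 TPM with a median of 4.38 in WT and from 15.8 to 35.1 with a median of 29.7 in KO. All 6 KO livers were above all 6 WT livers on both scales (28.7% of all tested genes as deposited and 10.8% after rescaling), and the mean was 4.93 times that of WT. The log2 fold change was 2.18 (SE 0.197, adjusted p = 1.28e-06), or 1.77 rescaled (adjusted p = 9.3e-06).

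*F3* encodes tissue factor, the cell-surface starter of blood clotting, at chr3:121723537-121735048. It ranged from 0.479 to 6.05 TPM with a median of 4.14 in WT and from 1.25 to 3.53 with a median of 2.22 in KO. The groups overlapped, the lowest value of all being a WT male. *F3* did not pass as deposited (log2 fold change -0.39, SE 0.249, adjusted p = 0.197) and was lower rescaled (-0.70, adjusted p = 0.0394). The rescaled call held in 2 of 12 fits that each left out 1 library, those without male replicate 2 of either genotype. The highest adjusted p among the 12 was 0.0865, and leaving out that lowest library, WT male replicate 2, gave a call as deposited as well (-0.63, adjusted p = 0.00728).

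Inside the cell, *Myof* rose and *Amotl2* did not. *Myof* encodes myoferlin, a membrane protein of vesicle fusion and repair, at chr19:37899036-38043577. It ranged from 0.245 to 0.536 TPM with a median of 0.477 in WT and from 1.64 to 3.32 with a median of 3.08 in KO. There was no overlap on either scale, which held in this direction for 28.7% of all tested genes as deposited and 10.8% rescaled. The KO mean was 6.38 times the WT mean. The log2 fold change on TPM + 1 was 1.40 (SE 0.128, adjusted p = 1.39e-06), or 1.16 rescaled, and adding 1 to values this low shrinks it; voom on the recovered reads (22 to 53 per WT library and 112 to 245 per KO library) gave 2.19.

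*Amotl2* encodes a scaffold of the angiomotin family that holds YAP at cell junctions, and so is both a target and an inhibitor of YAP; it lies at chr9:102716672-102733418. It ranged from 4.64 to 12.7 TPM with a median of 9.64 in WT and from 4.60 to 10.1 with a median of 7.83 in KO. The groups overlapped on both scales. The log2 fold change was -0.19 (SE 0.157, adjusted p = 0.309) as deposited and -0.60 (SE 0.126, adjusted p = 0.00204) rescaled, and the rescaled call held with any 1 library left out.

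*Asap1* encodes a regulator of the small GTPase ARF that remodels the actin cytoskeleton, at chr15:64086857-64382919. It ranged from 2.77 to 4.43 TPM with a median of 3.73 in WT and from 4.95 to 8.50 with a median of 6.02 in KO. The groups were apart as deposited, which held in this direction for 28.7% of all tested genes, and overlapped rescaled. Its log2 fold change was 0.61 (SE 0.136, adjusted p = 0.00212) as deposited and 0.22 (adjusted p = 0.175) rescaled, which is a call on the first scale alone.

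*Ankrd1*, at chr19:36111961-36120099, encodes an ankyrin repeat protein of the nucleus and the muscle sarcomere, and is among the targets most used to report YAP activity in cultured cells. In these livers it gave 64 reads over the 6 WT and 38 reads over the 6 KO libraries. It ranged from 0.0452 to 1.10 TPM with a median of 0.247 in WT and from 0 to 0.725 with a median of 0.175 in KO. The mean difference was -0.13 on the log2(TPM + 1) scale (exact permutation, two-sided, p = 0.55), or -0.25 rescaled (p = 0.35). The library at 0 is KO male replicate 1, where 3 reads, the limit that a count of 0 allows, would be 0.149 TPM.

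**Figure D2:**
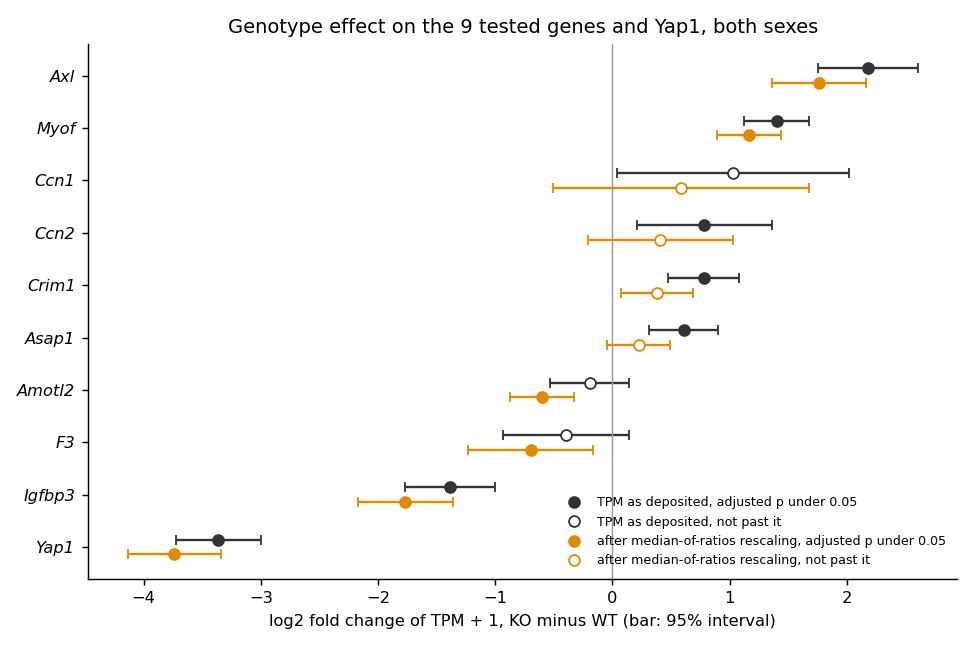
Log2 fold change of TPM + 1, KO minus WT (horizontal axis), for the 9 tested genes and *Yap1*, as deposited and after median-of-ratios rescaling; bars are 95% intervals of limma and filled points passed the threshold. Rescaling shifts every gene to the left, and *Axl*, *Myof*, *Igfbp3* and *Yap1* are filled on both scales.

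The authors' deposited table of KO against WT gave the same 3 genes. In the authors' deposited table *Axl* had a log2 fold change of 2.17, *Myof* of 2.24 and *Igfbp3* of -1.93, each with an FDR p-value printed as 0. The other 7 had FDR p-values from 0.17 for *Amotl2* to 0.82 for *Ccn1* in the authors' deposited table, whose genes with an FDR under 0.05 were 14.9% higher and 9.27% lower out of 17332. The log2 fold changes in the authors' deposited table were 0.15 for *Ccn1*, 0.16 for *Ccn2*, 0.35 for *Crim1*, 0.21 for *Asap1*, -0.41 for *Amotl2*, -0.23 for *F3* and -1.42 for *Ankrd1*.

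By sex, *Axl*, *Myof* and *Igfbp3* passed in both males and females on both scales, and *Ccn1* passed in females alone. In males 4 of the 9 were higher and 1 lower as deposited (43.3% and 2.81% of all tested genes), and 2 and 1 rescaled (13.9% and 10.2%). In females 5 were higher and 1 lower as deposited (29.1% and 4.68%), and 4 and 2 rescaled (15.2% and 10.9%). The interaction of genotype and sex called 0 of the 9 in limma on either scale (0.912% and 0.839% of all tested genes). At an unadjusted p under 0.05 it was 1, *Ccn1*. *Yap1* itself changed by -3.80 in males and -2.93 in females (rescaled -4.27 and -3.21). Its interaction did not pass in limma (adjusted p = 0.221, rescaled 0.0682). *Yap1* was 1.39, 0.994 and 1.80 TPM in KO males and 3.11, 2.44 and 2.41 in KO females.

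*Axl* in males was 3.09, 4.05 and 3.77 TPM in WT and 25.3, 15.8 and 33.0 in KO. In females it was 10.6, 4.71 and 7.96 in WT and 35.1, 30.1 and 29.2 in KO. The WT females lay above the WT males without passing the test (adjusted p = 0.0827, rescaled 0.144; as deposited 0.0453 without WT female replicate 2), and the log2 fold change was 2.42 in males and 1.95 in females, or 1.91 and 1.62 rescaled (interaction adjusted p = 0.729, rescaled 0.926). *Igfbp3* changed by -1.34 in males and -1.44 in females (rescaled -1.80 and -1.73), and *Myof* by 1.35 and 1.45 (rescaled 1.09 and 1.24).

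*Ccn1* in males was 43.8, 20.8 and 14.4 TPM in WT and 21.4, 27.6 and 13.3 in KO. In females it was 7.49, 7.15 and 14.4 in WT and 26.8, 70.8 and 61.8 in KO. Males overlapped and females did not overlap. The log2 fold change was -0.24 in males (adjusted p = 0.671; rescaled -0.79, adjusted p = 0.264) and 2.29 in females (adjusted p = 0.0015; rescaled 1.96, adjusted p = 0.00963). The difference between the sexes was -2.53 (SE 0.617), which missed the threshold with an adjusted p of 0.109 (rescaled -2.75, adjusted p = 0.134). As deposited it passed when WT male replicate 3 (adjusted p = 0.0349) or KO female replicate 1 (adjusted p = 0.0355) was left out.

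*Ankrd1* had differences of opposite sign in the sexes, on few reads. In males the libraries held 26, 22 and 4 reads in WT and 0, 1 and 2 in KO, and in females 1, 8 and 3 in WT and 6, 15 and 14 in KO. Male groups did not overlap as counted. Yet WT male replicate 3, at 0.143 TPM, lay below the 0.149 TPM that 3 reads would be in KO male replicate 1, so these reads do not resolve the separation. In females 1 WT liver with 8 reads exceeded 1 KO liver with 6. As deposited, males differed by -0.64 and females by 0.38 on the log2(TPM + 1) scale, and the difference of these changes was -1.03 (exact permutation of sex within genotype, two-sided, p = 0.015), or -1.11 rescaled (p = 0.02). The same interaction in limma without a filter on low values had an adjusted p of 0.301 over all genes.

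The interactions of the other members were smaller than that of *Ccn1*. *Ccn2* passed in females as deposited (1.09, adjusted p = 0.0373; lost when any female other than WT replicate 3 was left out, adjusted p = 0.0582 to 0.153) and not rescaled (0.81, adjusted p = 0.139) or in males (0.48, adjusted p = 0.299; rescaled 0.0041). *Crim1* passed in females on both scales (0.94 and 0.64) and in males as deposited alone (0.61, rescaled 0.12), a call lost without WT male replicate 1 or 2 or KO male replicate 3 (adjusted p = 0.0537 to 0.0874). *Asap1* passed in males as deposited alone (0.69, adjusted p = 0.0137; rescaled 0.21), and *Amotl2* fell in females rescaled alone (-0.72, adjusted p = 0.0109; -0.40 as deposited). Within WT liver *Amotl2* was lower in males than in females as deposited (6.90, 4.64 and 8.15 TPM against 11.1, 12.7 and 11.8; log2 difference -0.80, adjusted p = 0.048, where 4.6% of all tested genes were lower in males) and did not pass rescaled (-0.60), where 2.26% were lower. That call was lost in 10 of the 12 fits that each left out 1 library (adjusted p = 0.0502 to 0.195). Within KO liver 0 of the 9 differed by sex in limma (0.0814% of all tested genes did), with 2 at an unadjusted p under 0.05.

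**Figure D3:**
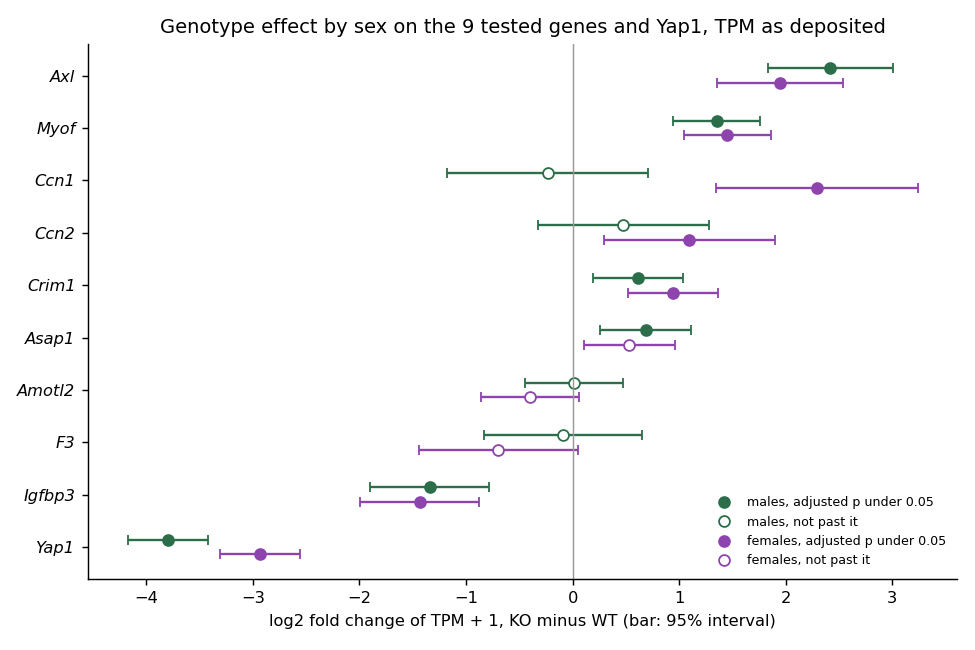
Log2 fold change of TPM + 1 as deposited, KO minus WT (horizontal axis), in males and in females for the 9 tested genes and *Yap1*, with 95% intervals; filled points passed the threshold. The male and female points of *Axl*, *Myof* and *Igfbp3* lie close together, while *Ccn1* is at -0.24 in males and 2.29 in females.

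Relatives of the members were followed next, because a family shares a biochemical role and often not its regulation. In the CCN family *Ccn5*, which lacks the C-terminal domain of its relatives, rose most. It was 0.106 to 0.579 TPM in WT and 6.64 to 25.2 in KO. There was no overlap on either scale, which held in this direction for 28.7% of all tested genes as deposited and 10.8% rescaled. The log2 fold change of *Ccn5* was 3.34 (SE 0.246, adjusted p = 1.89e-07 by limma), or 3.07 rescaled. *Ccn3*, *Ccn4* and *Ccn6* were under the filter. Among the angiomotins *Amot* rose from 1.37 ± 0.480 to 4.72 ± 1.09 TPM (log2 fold change 1.28, rescaled 0.95, both past the threshold). *Amotl1* stood at 1.91 ± 0.724 and 2.09 ± 0.832 TPM and did not pass (0.07, rescaled -0.24), so *Amot* and *Amotl2* gave opposite calls after rescaling. *Ankrd2*, a muscle relative of *Ankrd1*, was lower in KO (1.52 ± 0.897 against 0.217 ± 0.260 TPM, log2 fold change -0.98, rescaled -1.14, both past the threshold).

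Ligands of the TAM receptors also rose: *Gas6*, which encodes the ligand of AXL, and *Pros1*, which encodes protein S, a ligand of the sister receptors TYRO3 and MERTK. *Gas6* was 17.7 to 75.7 TPM in WT and 87.7 to 121 in KO, and *Pros1* 26.6 to 42.6 and 68.3 to 94.0. Neither overlapped on either scale, which held in this direction for 28.7% of all tested genes as deposited and 10.8% rescaled. The log2 fold changes were 1.58 for *Gas6* (rescaled 1.12) and 1.23 for *Pros1* (rescaled 0.77), all past the threshold. The sister receptor *Mertk*, a marker of macrophages, was 8.17 ± 3.02 and 10.9 ± 1.80 TPM. In limma it had 0.43 as deposited (adjusted p = 0.0344) and 0.01 rescaled (adjusted p = 0.945), its sign turning in voom. As deposited the call of *Mertk* did not hold in every fit that left out 1 library (adjusted p = 0.026 to 0.0828). *Tyro3* was under the filter.

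Genes of the insulin-like growth factor system were called in both directions. Along with *Igfbp3*, the acid-labile subunit gene *Igfals*, whose product joins IGFBP3 in the circulating complex, fell from 112 ± 31.0 to 36.6 ± 12.7 TPM (log2 fold change -1.60, rescaled -2.06), and *Igf1* itself from a median of 128 to one of 88.5 TPM (-0.45, rescaled -0.91). *Igfbp1*, which is induced by fasting and stress, stood at 390 ± 585 TPM in WT and 1238 ± 478 in KO, with overlap (27.6 to 1482 and 838 to 2055). The ratio of the means was 3.17 and the mean log2 fold change 3.14 (rescaled 2.68), both past the threshold in limma, while the authors' deposited table gives 1.25 with an FDR of 0.06. *Igfbp7* (1.45, rescaled 0.99) and *Igfbp2* (0.89, rescaled 0.42) also passed on both scales. Over the 9 genes of this list, *Igfbp3* included, 3 were higher and 3 lower as deposited (50.1% and 4.82% of all tested genes), and 3 higher and 5 lower rescaled (20.9% and 18.7%).

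The remaining families were the ferlins, the relatives of *Crim1*, the clotting partners of *F3* and the ASAP family. *Dysf*, the ferlin of muscle membrane repair, passed as deposited (0.51) and not rescaled (0.25). *Bmper*, another binder of bone morphogenetic proteins, rose from 0.0722 to 1.09 TPM in WT to 1.53 to 3.14 in KO (1.10, rescaled 0.90, both past the threshold), while *Kcp* passed as deposited alone (0.84, rescaled 0.48). *Asap2* (1.55, rescaled 1.16) and *Asap3* (1.52, rescaled 1.12) passed on both scales, and their changes were larger than the 0.61 of *Asap1*. Of the 5 genes of tissue factor, its ligands and its inhibitors, limma called 0 as deposited (50.1% of all tested genes were higher and 4.82% lower), with 1 at an unadjusted p under 0.05. Rescaled, 0 were higher and 2 lower, *F3* and *F7* (20.9% and 18.7% of all tested genes).

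**Figure D4:**
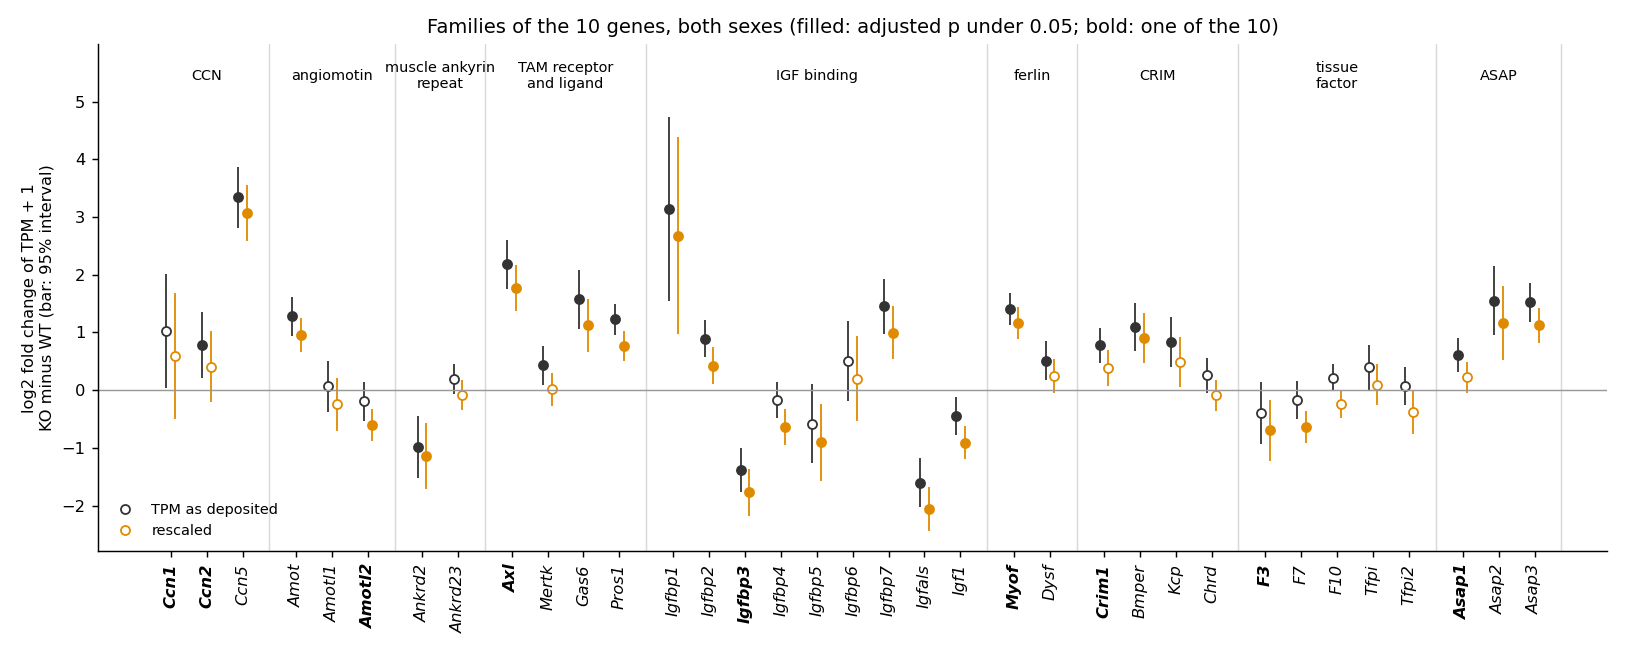
Log2 fold change of TPM + 1, KO minus WT (vertical axis), for tested genes of the families of the 10 members, as deposited and rescaled, with 95% intervals; filled points passed the threshold and members are in bold. *Ccn5* and *Igfbp1* lie above 3 as deposited, and *Igfbp3* and *Igfals* are the lowest filled points of the insulin-like growth factor group.

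Other targets and the pathway itself were read in the same way. The 12 further genes of the 22-gene YAP and TAZ signature, from which the 10 are drawn, held 9 that were tested: 5 passed as deposited, all higher, and 2 passed rescaled, *Ccdc80* and *Tgfb2*, both higher, which are shares near the 50.1% and 20.9% of all tested genes that were higher. *Ccdc80*, a matrix protein gene, rose from 3.47 ± 1.16 to 22.5 ± 7.47 TPM (2.35, rescaled 1.95), and *Tgfb2*, a growth factor gene of fibrosis, from 0.255 ± 0.0920 to 1.38 ± 0.497 (0.90, rescaled 0.72). *Nt5e* (1.39, rescaled 0.99) and *Arhgef17* (0.45, rescaled 0.23) passed as deposited alone, and *Foxf2* was listed at 0 in all 12 libraries. Among the 15 genes of the Hippo core, 14 were tested: 7 were higher and 1, *Yap1*, lower as deposited, and 3 were higher and 3 lower rescaled, again near the shares of all tested genes. *Wwtr1*, which encodes TAZ, was 4.85 to 7.30 TPM in WT and 12.9 to 15.3 in KO (1.18, rescaled 0.77), *Tead1* rose by 1.01 (rescaled 0.66) and the adaptor gene *Sav1* by 0.73 (rescaled 0.31), all past the threshold.

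Transcripts that mark other liver cell types differed between the genotypes as well. In bulk tissue more cells of a type and more RNA per cell cannot be told apart. The counts of each list are to be read against the 50.1% of all tested genes that were higher and 4.82% lower as deposited, and the 20.9% and 18.7% rescaled. Of 10 macrophage markers 10 were higher as deposited and 9 rescaled, and their summed TPM was 73.1 to 236 in WT and 348 to 720 in KO. *Adgre1*, a defining macrophage gene, had a log2 fold change of 2.01 (rescaled 1.61), beside 2.18 for *Axl*, which macrophages also make. Of 11 stellate and fibroblast markers 8 were higher as deposited; rescaled, 6 were higher and 1, *Lrat*, lower. Their sum was 69.6 to 187 TPM in WT and 203 to 500 in KO as deposited, and overlapped after rescaling (87.3 to 206 and 178 to 394), and *Col1a1* rose by 4.01 (rescaled 3.61). Within WT, the female liver with the highest macrophage sum (replicate 1, 236 TPM) also had the highest *Axl* (10.6 TPM). The part of these cells in the rise of *Axl*, *Myof*, *Crim1* and *Ccn2* was not tested.

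Of the 7 cholangiocyte markers tested, 5 were higher and 1 lower as deposited (50.1% and 4.82% of all tested genes), and 4 and 1 rescaled (20.9% and 18.7%). Their sum, over all 10 listed, was 37.9 to 71.8 TPM in WT and 293 to 758 in KO, most of it *Spp1*, which rose by 3.76 (rescaled 3.31) and is also made by other injured cells. The duct keratin *Krt19* stood at 1.38 ± 0.641 TPM in WT and 1.24 ± 0.728 in KO and did not pass in limma (-0.12, rescaled -0.36), while the authors' deposited table has it lower (-1.50, FDR 0.02). *Epcam*, a surface protein gene of bile duct cells, was the lower one: it went from 0.940 ± 0.341 to 0.515 ± 0.169 TPM (-0.35, rescaled -0.53, both past the threshold), and the authors' deposited table gives -1.38 (FDR 0.02). Endothelial markers summed to 82.6 to 133 TPM in WT and 52.4 to 195 in KO, with 2 of 10 higher and 2 lower as deposited (1 and 3 rescaled). Of 10 hepatocyte markers 1 was higher and 3 lower as deposited, and 5 were lower rescaled. Neutrophil markers had 3 of 4 tested higher (1 rescaled), while the authors' deposited table had 0 of the 6 listed under an FDR of 0.05. As deposited the call of *S100a9* did not hold in every fit that left out 1 library (limma adjusted p = 0.0156 to 0.0865). Of 6 mesothelial markers 3 were higher, which is the share of all tested genes as deposited (2 rescaled), and their sum was 167 to 297 TPM in WT and 1407 to 2270 in KO, nearly all of it *Krt8*, a keratin that hepatocytes and duct cells also make (2.87, rescaled 2.40). Of 4 lymphocyte markers limma called 0 on either scale, with 0 at an unadjusted p under 0.05 and 0 in voom.

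Immediate early genes, which cells switch on within minutes of a stimulus or of tissue handling, varied between livers of 1 group. Summed TPM of 8 such genes was 1358, 832 and 77.1 in WT males and 82.1, 87.5 and 94.3 in WT females, so WT male replicates 1 and 2 stood apart from the other 4 WT livers. In KO it was 1085, 1471 and 510 in males and 306, 2260 and 1198 in females. The same WT males had the highest WT values of *Ccn1* (43.8 and 20.8 TPM) and *Ankrd1* (1.10 and 0.835), and the KO females with 2260 and 1198 had the highest *Ccn1* of all (70.8 and 61.8). Other livers did not follow this order: KO males with sums of 1085 and 1471 had *Ankrd1* at 0 and 0.0499 TPM, and KO male replicate 2 (1471) had *Ccn1* at 27.6 TPM, beside 26.8 in KO female replicate 1, which had the lowest KO sum (306). Of the 8 genes 6 were higher as deposited and 3 rescaled (*Fos*, *Fosb* and *Jun*), beside 50.1% and 20.9% of all tested genes, *Fos* by 3.50 (rescaled 3.10). The authors' deposited table has 2 of the 8 under an FDR of 0.05, *Fos* and *Fosb*. Their part in the values of *Ccn1* and *Ankrd1* was not tested. *Axl*, *Myof* and *Igfbp3* kept their calls without either of these WT males.

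**Figure D5:**
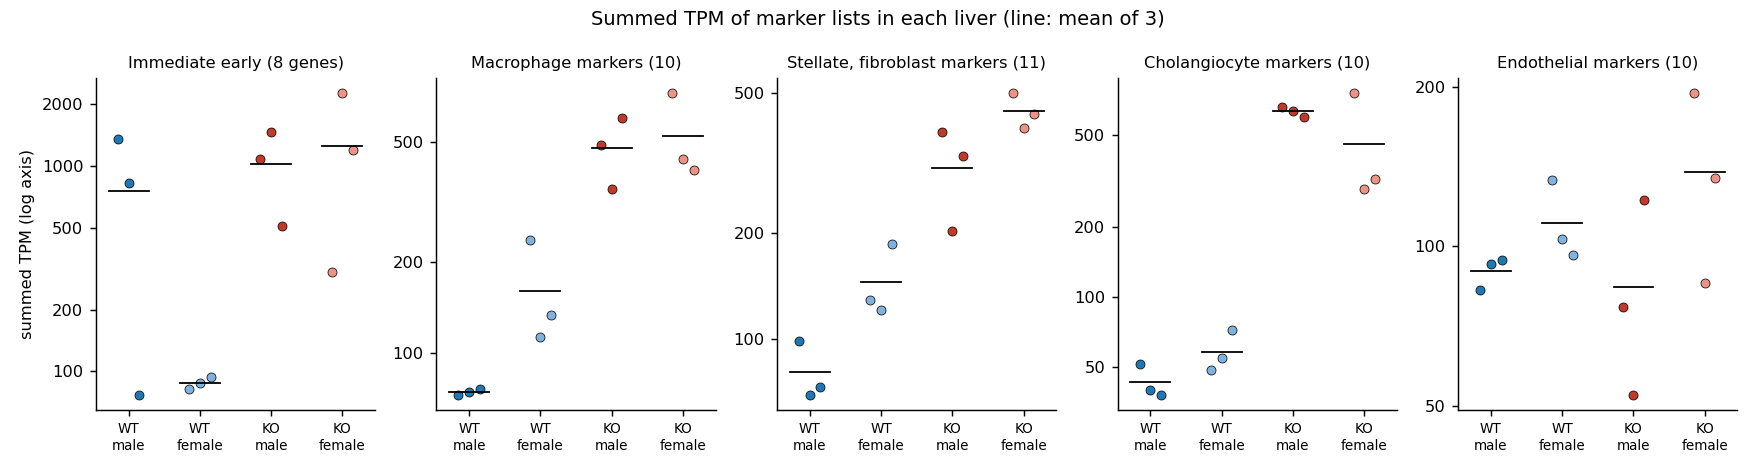
Summed TPM (logarithmic vertical axis) of 5 gene lists in each of the 12 livers by genotype and sex; points are mice and lines are means of 3. Macrophage, stellate and cholangiocyte sums in KO lie above every WT liver as deposited (after rescaling the stellate sums overlap), while immediate early and endothelial sums overlap.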

How the data were processed

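Liver RNA of 12 mice was sequenced, 1 library each. The authors deposited 1 table with TPM (transcript abundance) for each library, each column summing to 1000000, per the file headers. Genome build GRCm38 and edgeR are named in the submitters' processing notes, with no role; aligner, counter, annotation and use of strand are not given in the sources used here. The authors also deposited a signed fold change (here taken as a score, negative where KO is lower), its log2 and an FDR-adjusted p-value to 2 decimals for KO against WT, per the file headers. All 12 TPM columns matched 1 sample each, and 0 were left over. Groups came from the titles; replicates were numbered in order of deposition.

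TPM were analysed as log2(TPM + 1) with limma 3.58.1 in R 4.3.3 (lmFit, eBayes with trend), for the 12278 genes with a mean of at least 0.5 TPM, p-values being two-sided and adjusted by Benjamini-Hochberg. Genotype was fitted with sex as a covariate; effects within a sex, the interaction (male minus female effect) and sex differences came from the 4 group means. *Yap1* and *Ankrd1*, which is under the filter, were tested by exact permutation over 400 arrangements. Median-of-ratios rescaling used genes above 0 in every library. In 99.9% of 17332 genes a whole length in bases made every library's value a whole number of reads within 0.001; limma-voom was run on these reads, an alternative chosen after seeing the data, as were the rescaled fits without each library and the *Ankrd1* interaction. The limma script was tested on simulated data. Positions are GENCODE M21 on GRCm38, matched by Ensembl identifier. Named genes are the 10 members, *Yap1* and, from each other list, up to 4 with the largest absolute change past the threshold as deposited, with close relatives of a member. *Foxf2*, *Amotl1*, *Krt19*, *Epcam*, *Lrat*, *F7*, *Fosb*, *Igf1*, *Alb*, *Dock5* and genes under the filter were named in addition, some after their values were seen. The members and lists were chosen with earlier results of these data known.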

Additional observations from a re-analysis of the deposited data

Results flagged for a closer look

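*Myof* had 1 mouse apart from the rest in each genotype. In WT, male replicate 2 was the lowest, and its gap to the next liver was 0.725 of the range of the 6. In KO, male replicate 2 was the lowest, with a gap of 0.789 of the range. These are gaps in log2(TPM + 1). Both are above Dixon's 95% critical value for 6 samples, which chance passes in about 1 in 20 groups, and 22 groups (11 genes in each genotype) were examined. The KO mouse that was low, at 1.64 TPM, was still above every WT liver.

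The KO minus WT difference of *Ankrd1* in males, minus that in females, was -1.03 on the log2(TPM + 1) scale (exact permutation of sex within genotype, two-sided, p = 0.015, one gene alone). In limma without a filter on low values the same contrast did not pass over all genes (adjusted p = 0.301). This test of one gene was added after its values by sex were seen.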

How the results depend on the processing

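Over both sexes, *Axl*, *Myof* and *Igfbp3* kept direction and call in all 35 alternatives. Rescaling by median of ratios gave 2 members higher and 3 lower in place of 5 and 1, and limma-voom on recovered reads 3 and 3. Rescaling also gave 2959 genes and 2 members higher in males, 2 members lower in females and 0 lower in the sexes of WT; without a filter 2 members were lower in males, the second being *Ankrd1* (-0.64, adjusted p = 0.0351), and 0 lower in WT males. Other pseudocounts and filters, no trend, no sex covariate, a term for the earlier animal numbers (WT female replicate 3 and KO female replicate 1) and their omission kept the counts over both sexes at 5 and 1.

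Directions turned for *Hnf4a* (-0.13 rescaled, -0.13 in voom), *Mertk* (-0.0099 in voom), *Amotl2* in males (-0.49 rescaled), *F3* in males (0.011 with a pseudocount of 0.1), the interaction of *Igfbp3* (-0.069 rescaled, -0.024 with a pseudocount of 0.1) and of *Asap1* (-0.026 rescaled), and *Ccn2* between KO sexes (-0.00498 with a pseudocount of 0.1); the cause was not tested.

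Leaving out each library gave 4 to 6 members higher and 1 to 2 lower over both sexes among 6220 to 6845 genes (rescaled 2 to 3 and 2 to 3, of 4224 to 5068 genes, with 4445 without WT male replicate 3, 4410 and 4493 without WT female replicates 1 and 3, 4385 without KO male replicate 1, and 4435 and 4321 without KO female replicates 1 and 3), 1 to 2 lower in females, 0 to 1 lower in the interaction (75 to 176 genes), and 0 to 1 higher and 0 to 2 lower between WT sexes (290 to 1696 genes); KO sexes gave 6 to 10 genes. In these fits directions turned in males for *Amotl2* (-0.19 to 0.22), *Ccn1* (-0.58 to 0.20) and *F3* (-0.55 to 0.31), in the interaction for *Asap1* (-0.061 to 0.28), *Igfbp3* (-0.15 to 0.37) and *Myof* (-0.24 to 0.12), between WT sexes for *Myof* (-0.15 to 0.00286), between KO sexes for *Asap1* (-0.25 to 0.086), *Ccn2* (-0.31 to 0.35) and *Myof* (-0.32 to 0.033). No paired analysis was possible because replicate numbers follow the order of deposition. *Ankrd1* rests on 0 to 26 reads per library, so its order among single livers is uncertain.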
